A study of Mus musculus with 42 samples.

Results

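RNA levels were compared between mouse embryonic stem cells that carry an HA-AVI tag on Tnrc6a and untagged cells of the same reporter line, in the second of the study's 2 experiments. The comparison takes in 6 of the 42 libraries of the series, namely the input libraries of 3 tagged and 3 untagged samples, which hold RNA of the cell lysate before any immunoprecipitation. Members were chosen by those labels, and results are given for autosomal and mitochondrial genes, 15603 of the 19778 genes tested. The other 4175 genes lie on a sex chromosome or have no place in the RefSeq table used here.

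The study used RNA immunoprecipitation with anti-HA beads to ask which RNAs associate with Tnrc6a, and how Trim71 and Ago2 bear on this. Both groups are 129S6/SvEvTac embryonic stem cells that carry the GFP_5xT71BS reporter at the locus the labels call yGlob and a stably transfected FLAG-Cas9::T2A::Blasticidin construct. They were grown in serum and LIF on gelatin, in triplicate dishes per the series text. The tagged group differs in the labels by HA-AVI-Tnrc6a alone. Whether the tagged line derives from 1 clone is not stated there. The samples are taken here as repeat dishes of 1 line for each group. The p-values rest on a spread between repeat samples that was pooled over all libraries of the same experiment, immunoprecipitated ones included. That spread is not that of the compared dishes alone, and it does not cover variation between separately derived lines. The comparison serves as a check of the tagged line against its untagged control.

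Tnrc6a is a GW182 protein, the scaffold through which Argonaute proteins loaded with a microRNA recruit deadenylases and repress mRNAs. Trim71 is an RNA-binding TRIM-NHL protein of early development that represses its own set of mRNAs, and Ago2 is the Argonaute that can cleave its targets. Embryonic stem cells grown in serum and LIF express transcription factors of the naive pluripotent state and some germline genes.

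The 6 libraries held 17083684 to 18851954 counts each, and mitochondrial genes took 1.24% to 1.82% of them. Levels are given as CPM, the counts of a gene relative to the library's total scaled by TMM, a normalization that assumes most genes do not change. The sampled cells had the markers of their label. The 10 embryonic stem cell markers summed to 7634 to 8026 CPM in untagged and 8252 to 8452 CPM in tagged libraries. Of them 0 were called, beside 1.39% of all genes. The 21 primitive endoderm genes in the table summed to 543 to 649 and 496 to 561 CPM. The 11 mesendoderm genes tested stood at 36.4 to 37.2 and 34.0 to 37.2 CPM. The 10 neural genes stood at 477 to 495 and 444 to 453, and the 10 trophectoderm genes at 142 to 152 and 148 to 165. The 5 fibroblast genes in the table summed to 709 to 788 and 638 to 905 CPM, and the 9 genes of the 2-cell-like state to 408 to 427 and 475 to 492. The higher sum of the latter in tagged libraries does not hold gene by gene. Their median log2 change of tagged minus untagged was -0.10, with 6 below 0 and 3 above.

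The gene that carries the tag did not differ detectably in RNA level. Tnrc6a stood at 98.2, 98.7 and 89.7 CPM in the untagged libraries and at 93.8, 83.1 and 86.7 CPM in the tagged ones. The groups overlapped, and the log2 change of tagged minus untagged was -0.12 (SE 0.20, adjusted p 0.890), with edgeR's quasi-likelihood test and Benjamini-Hochberg adjustment over all genes, as throughout. Trim71 stood at 269.6, 278 and 267 CPM against 309, 265 and 273 CPM, a log2 change of 0.06 (SE 0.08, adjusted p 0.874). Ago2 stood at 373, 434 and 369.6 against 390.2, 321 and 347 CPM, a log2 change of -0.15 (SE 0.10, adjusted p 0.585). These 3 levels do not check the label itself, since the tag adds sequence to a gene rather than removing it. Of the 20 tested genes nearest to Tnrc6a on chromosome 7, 10 on each side, 0 were called, beside 1.39% of all genes. Among all 30 GW182, Argonaute and microRNA factors 0 were called, beside the same share. With so few genes, 0 calls is near the share over all genes. The median log2 change of the 30 factors was -0.05, with 23 below 0 and 7 above.

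Few genes differed between the lines. Of 15603 genes, 217 (1.39%) were called at an adjusted p under 0.05. Of these, 114 were higher in tagged cells (0.731%) and 103 were lower (0.66%). Only 27 of them changed at least 2-fold (0.173%), 24 higher (0.154%) and 3 lower (0.0192%). Those 3 had low mean levels, of -1.67, 1.01 and 1.53 log2 CPM. Among called genes of at least 2 log2 CPM with a symbol no other row shares, no change reached 2-fold. The largest rise there was 0.95 and the largest fall -0.73 on the log2 scale. The median log2 change of all genes was -0.01 and their median standard error (SE) was 0.11. The CPM ranges of the groups did not overlap in any of the 217 called genes, beside 3327 (21.3%) of all genes. At an unadjusted p under 0.05 there were 2003 genes (12.8%). These counts depended on what else entered the fit. All 24 libraries of experiment 2, immunoprecipitated ones included, shared 1 estimate of the spread. A fit of the 6 libraries alone called 417 genes and a fit of the 12 input libraries called 349. With library size alone in place of TMM, 124 genes were higher and 73 lower. Leaving out 1 library gave 117, 118 and 136 calls without untagged replicates 1, 2 and 3, and 127, 147 and 128 without tagged replicates 1, 2 and 3.

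**Figure D1:**
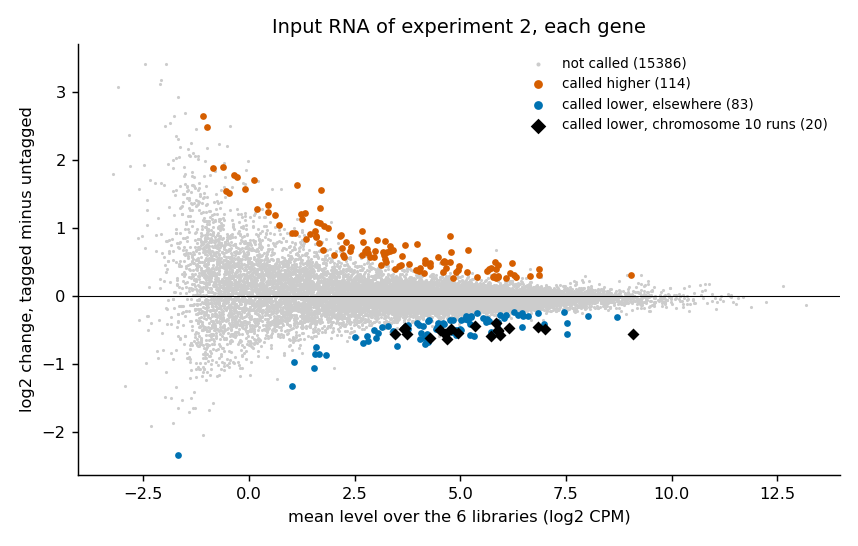
Log2 change of tagged minus untagged input RNA (vertical axis) against the mean level over the 6 libraries in log2 CPM (horizontal axis), 1 point for each of the 15603 autosomal and mitochondrial genes of experiment 2. The 114 genes called higher reach further from 0 than the 103 called lower, since 24 of the 27 changes of at least 2-fold are rises. At a mean of at least 2 log2 CPM, the largest called changes of genes with a symbol of their own were 0.95 and -0.73. Of the genes called lower, 20 lie in 2 runs of chromosome 10.

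Ddr2, a receptor tyrosine kinase activated by collagen, had the largest change of the 5 higher genes with the smallest p. It stood at 1.48, 1.86 and 2.15 CPM in untagged and 6.22, 5.76 and 4.35 CPM in tagged libraries, a log2 change of 1.56 (SE 0.18, adjusted p 5.27e-06). Arl14epl had the smallest p of any higher gene, at 18.4 to 21.9 CPM in untagged and 33.5 to 41.4 CPM in tagged libraries and a log2 change of 0.89 (SE 0.08, adjusted p 4.04e-08). Every tagged library of both genes lay above every untagged one. Among called genes with a mean of at least 2 log2 CPM, Slfn9, a Schlafen family gene, rose most, from 4.56 ± 0.816 to 8.83 ± 1.37 CPM (SD, n = 3), a log2 change of 0.95 (SE 0.15, adjusted p 0.000605). Slc4a5, a sodium bicarbonate cotransporter, went from 6.12 ± 0.500 to 10.9 ± 1.76 CPM, and Tgm3, a transglutaminase, from 4.82 ± 0.696 to 8.42 ± 0.817. Their log2 changes were 0.83 (SE 0.13, adjusted p 0.000382) and 0.80 (SE 0.12, adjusted p 0.000244). Tnfrsf19, a receptor of the tumour necrosis factor family, rose by 0.75 on the log2 scale. The other rises among the 15 with the largest change were those of Ttc39c (0.88), Rims1 (0.80), Eprn (0.74), Serpinb1a (0.71) and Myh13 (0.69), beside Tuba3a and genes of the lists, described further on. Without untagged replicate 1 the calls of Ttc39c, Rims1, Eprn, Serpinb1a and Myh13 were lost. Those of Rims1 and Eprn were also lost in 2 other fits that left out 1 library, and that of Myh13 in 4 others.

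Outside chromosomes 8 and 10, Alg8 fell most among called genes with a mean of at least 2 log2 CPM. Alg8, a glucosyltransferase that builds the precursor of N-linked glycans, stood at 15.1, 13.2 and 15.0 CPM in untagged and 7.80, 9.93 and 8.52 CPM in tagged libraries, a log2 change of -0.73 (SE 0.13, adjusted p 0.00181). Rnf157, a ubiquitin ligase, stood at 24.3, 22.7 and 21.5 against 14.3, 14.4 and 13.6 CPM, a change of -0.70 (SE 0.09, adjusted p 7.59e-05). Fignl2 stood at 48.8, 48.5 and 50.5 against 32.5, 33.1 and 33.0 CPM, a change of -0.58 (SE 0.07, adjusted p 5.44e-06). For each of the 3 genes all tagged libraries lay below all untagged ones. Celsr3, an atypical cadherin of planar polarity, changed by -0.69 and Plppr2 by -0.66. Their calls were lost in 2 and 5 of the 6 fits that left out 1 library. Cfap300, a gene of motile cilia, changed by -0.60, and its call was lost in 5 of those fits and with library size alone.

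On chromosome 10 most of the genes called lower lay in 2 stretches. Along each chromosome, consecutive genes with a mean of at least 2 log2 CPM were searched for runs of at least 10 genes that all changed by more than 0.1 (log2) in 1 direction, a rule set after the changes had been seen. It found 5 runs, and 2 of them, both on chromosome 10, had a median past 0.25 in size. The others were a pair on chromosome 8 with medians of -0.14 and -0.23 and the 22 largely overlapping transcripts around the Pcdhg cluster on chromosome 18 with a median of 0.21. The first run extends from Cited2 to Epb41l2 (GRCm38 chromosome 10, 17723228 to 25523519) and holds 27 genes. All 27 were below 0, with a median log2 change of -0.42 and values from -0.59 to -0.16. The second run extends from Reep3 to Ipmk (chromosome 10, 67009189 to 71385885) and holds 18 genes, all below 0, with a median of -0.47 and values from -0.62 to -0.24. Of the 45 genes 20 were called, all lower, against 1.54% of all genes at that level called in either direction. In 42 the groups did not overlap, against 21.3% of all genes of any level. The calls number 11 in the first run and 9 in the second. Because the rule used the direction and size of these changes, it favours a shared direction, calls and separate groups. These are a description and were given no test as a set.

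The rule ends a run at the first gene that did not change by more than 0.1 in its direction, so it sets the edges. The nearest gene of that level before the first run, Gm8355, stood at -0.04 and the gene after it, L3mbtl3, at 0.04. The second run follows, among genes of that level, Sirt1 at 0.07 and precedes Gm4798 at 0.27. Of the 23 genes of that level called lower on chromosome 10, 3 lie outside the runs, and they were picked after their values were seen. They are Hnrnph3 (-0.34), between the runs and close to the second, Tpgs1 (-0.42) and Celf5 (-0.29). The 115 genes between the runs had a median of -0.03, and the 513 genes of chromosome 10 outside the runs had the same median, against -0.02 for all 11392 genes of that level. In windows of 5 Mb with at least 10 such genes, 4 of 356 had a median past 0.25 in size, and all 4 lie on chromosome 10. The other windows ranged from -0.15 to 0.10. DNA of these cells was not analysed here, and no cause of the runs was tested.

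**Figure D2:**
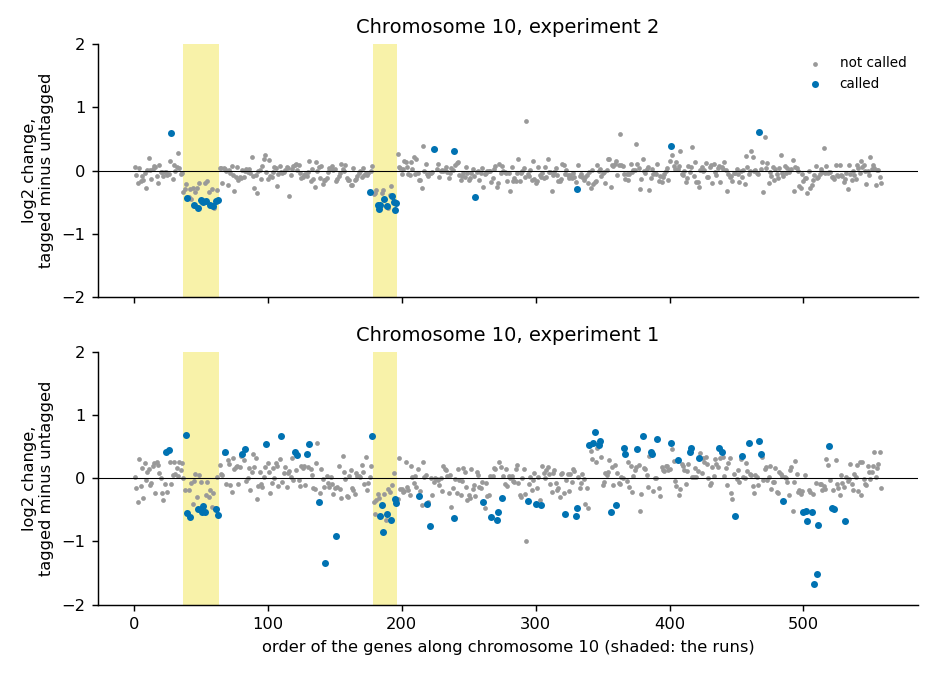
Log2 change of tagged minus untagged input RNA for the 558 genes of chromosome 10 with a mean of at least 2 log2 CPM, drawn in their order along the chromosome, for experiment 2 (top) and experiment 1 (bottom). Blue points are genes called at an adjusted p under 0.05 and shading marks the runs. In experiment 2 both shaded runs lie wholly below 0, as the rule requires, with medians of -0.42 and -0.47. The 513 other genes have a median of -0.03. In experiment 1, 39 of the 45 genes lie below 0 amid more calls elsewhere. There the rule gave no run in the first stretch and 15 genes of the second.

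The called genes of the first run have several roles. Rps12, a protein of the small ribosomal subunit, stood at 714, 616 and 649 CPM in untagged and 429, 479 and 446 CPM in tagged libraries, a log2 change of -0.55 (SE 0.08, adjusted p 0.000135). It was the 1 call among 74 cytosolic ribosomal protein genes, which is near the 1.39% called of all genes. Their median was -0.08, with 70 below 0 and 4 above. Hbs1l, which rescues stalled ribosomes, stood at 73.0, 69.0 and 69.1 against 53.3, 48.6 and 47.8 CPM, a change of -0.50 (SE 0.06, adjusted p 8.74e-06). Both genes were lower in each tagged library than in any untagged one. Map7, a microtubule-associated protein, went from 65.1 ± 2.67 to 43.3 ± 2.98 CPM and Stx7, an endosomal SNARE, from 30.2 ± 2.57 to 20.6 ± 0.475 CPM. Their log2 changes were -0.59 (SE 0.09, adjusted p 0.000272) and -0.55 (SE 0.10, adjusted p 0.00194). Reps1, an endocytic adaptor, changed by -0.44, and Epb41l2, a protein 4.1 of the membrane skeleton, by -0.47. Med23, a Mediator subunit, changed by -0.48, Mtfr2, a regulator of mitochondrial fission, by -0.47, and the kinase Sgk1 by -0.48. Ahi1, a protein of the primary cilium, changed by -0.48, and Perp by -0.55. Perp, a p53 target, was the 1 call among 25 p53 response genes, beside 1.39% of all genes called. Their median was -0.12, with 19 below 0 and 6 above. In fits that left out 1 library, the calls of Med23, Mtfr2, Perp, Sgk1 and Ahi1 were lost in 2, 4, 4, 5 and 5 of 6.

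Copies of Rps12 moved with it. The pseudogenes Rps12l1 on chromosome 7 and Rps12-ps3 on chromosome 19 are annotated as copies of Rps12 and were called lower, at -0.63 and -0.61. They held 23.2 ± 3.95 and 21.7 ± 0.272 CPM in untagged libraries. How the counting shared reads among such copies is not given in the sources used here, so their values are uncertain.

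The second run holds Cdk1, the kinase that drives entry into mitosis, and Tfam, which packages and transcribes mitochondrial DNA. Cdk1 stood at 125, 132 and 143 CPM in untagged and 95.2, 99.7 and 98.7 CPM in tagged libraries, a log2 change of -0.45 (SE 0.07, adjusted p 0.000411). Tfam stood at 66.6, 62.6 and 69.3 against 51.7, 50.3 and 49.0 CPM, a change of -0.40 (SE 0.06, adjusted p 0.000787). Cisd1, an iron-sulfur protein of the outer mitochondrial membrane, had the smallest p of any lower gene. Its levels were 33.1, 30.5 and 31.3 against 19.6, 21.6 and 20.5 CPM and its log2 change was -0.62 (SE 0.07, adjusted p 3.17e-06). In all 3 genes the groups were well apart. Its neighbour Ipmk, an inositol polyphosphate kinase, changed by -0.51 (SE 0.06, adjusted p 3.36e-05) and Ccdc6 by -0.56 (SE 0.07, adjusted p 1.88e-05). Ado, a thiol dioxygenase, changed by -0.54, Zfp365 by -0.61, Rtkn2 by -0.55, and the ubiquitin-conjugating enzyme Ube2d1 by -0.50. The call of Ube2d1 was lost in 3 of the 6 fits that left out 1 library. Jmjd1c and Ank3 were not called, at -0.35 (SE 0.45, adjusted p 0.840) and -0.56 (SE 0.28, adjusted p 0.426).

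The runs were lower in each tagged library, those of experiment 1 and of the knockout-labelled cells included. As medians of log2 (CPM + 0.1) relative to the mean of the untagged libraries, the 3 tagged libraries stood at -0.38, -0.40 and -0.40 in the first run, and the untagged ones at 0.00, -0.02 and 0.02. In the second run the tagged libraries stood at -0.47, -0.43 and -0.45 and the untagged ones at -0.09, 0.05 and 0.05. Tagged and untagged libraries were far apart in both, which the rule that picked these genes by their change favours. In experiment 1, which has its own 3 tagged and 3 untagged input libraries, 39 of the 45 genes were below 0 with a median log2 change of -0.31, and 15 were called lower beside 4.9% of all its genes. Its tagged libraries stood at -0.25, -0.28 and -0.30 in the first run and at -0.32, -0.48 and -0.43 in the second. The same rule gave no run of experiment 1 in the first stretch. In the second it gave 15 genes, from Reep3 to Tfam, with a median of -0.37. Elsewhere in experiment 1 it gave runs with larger medians, such as 0.84 on chromosome 4, 0.75 on chromosome 13 and 0.60 on chromosome 17. The cells labelled Trim71KO and Ago2KO in experiment 2 also carry the tag and are set against the same untagged libraries, so their values are not independent of those above. Their medians over the 45 genes were -0.39 and -0.38. The Trim71KO cells of experiment 1, set against the untagged libraries of that experiment, had a median of -0.39. In experiment 2 the rule gave 11 genes of the second run for Trim71KO and 15 genes of the first run for Ago2KO. For Trim71KO of experiment 1 it gave no run on chromosome 10.

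**Figure D3:**
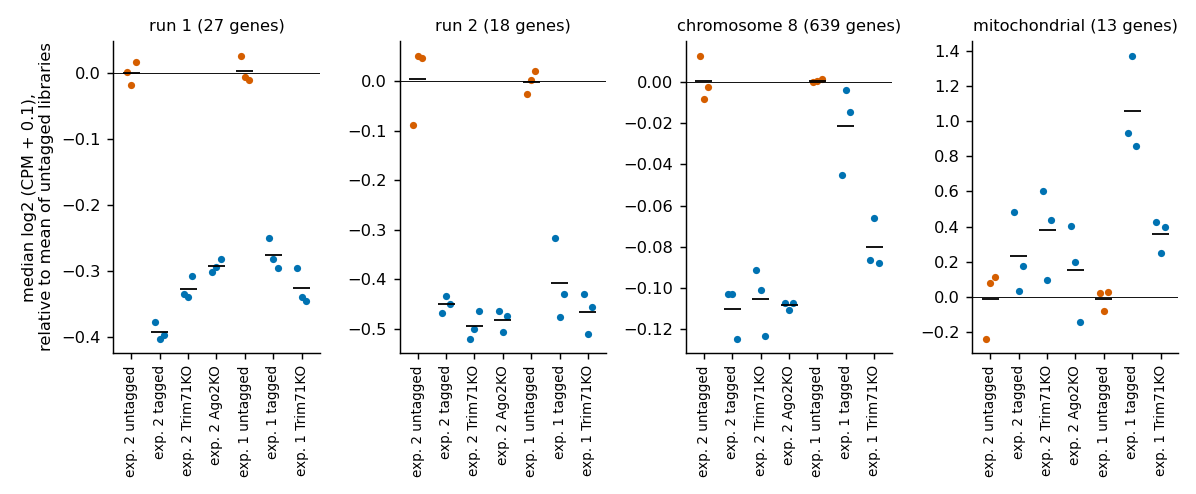
Medians of log2 (CPM + 0.1) in each input library, relative to the mean of the untagged libraries of the same experiment, for the runs of chromosome 10, for chromosome 8 and for the mitochondrial genes. Each point is 1 library, bars are means of 3, and orange marks untagged and blue tagged cells, knockout-labelled ones included. In the runs every tagged library lies below every untagged one, while the 13 mitochondrial genes overlap in experiment 2.

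Chromosome 8 was lower as a whole by a small amount. Of its 639 genes with a mean of at least 2 log2 CPM, 536 (83.9%) were below 0, against 58.1% of all such genes, and the median was -0.11. All 21 windows of 5 Mb on it had a median below 0, from -0.15 to -0.04. Calls on it were 19 lower and 1 higher at that level, beside 0.834% and 0.702% of all such genes. The tagged libraries had chromosome 8 medians of -0.103, -0.103 and -0.125 and the untagged ones 0.0131, -0.0083 and -0.0025, so the groups were apart. Without untagged replicate 1 the median was -0.08. In experiment 1 the chromosome 8 median was -0.03, and its tagged libraries stood at -0.045, -0.0039 and -0.014. The Trim71KO libraries of experiment 1 stood at -0.087, -0.066 and -0.088 against the same untagged libraries. In experiment 2 the Trim71KO and Ago2KO libraries had mean chromosome 8 medians of -0.11 and -0.11 against the untagged libraries used above.

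Among the genes of chromosome 8, Sox1, a neural progenitor transcription factor, stood at 22.4, 24.5 and 24.2 CPM in untagged and 14.2, 15.9 and 14.6 CPM in tagged libraries, a log2 change of -0.67 (SE 0.12, adjusted p 0.00137). It was the 1 call among 10 neural genes, beside 1.39% of all genes called, and their median was 0.08. Apela, which encodes a peptide ligand of the apelin receptor, stood at 22.5, 19.6 and 19.2 against 13.2, 13.9 and 12.5 CPM, a change of -0.63 (SE 0.11, adjusted p 0.00134). Jund, a component of AP-1, stood at 107, 98.1 and 103 against 72.2, 80.6 and 72.4 CPM, a change of -0.45 (SE 0.07, adjusted p 0.000283). All tagged libraries of these genes lay below all untagged ones. Gab1, an adaptor of receptor tyrosine kinases, changed by -0.40, Exoc3l by -0.61 and Mef2b by -0.58. The calls of Exoc3l and Mef2b were lost in 4 and 5 of the 6 fits that left out 1 library. In bulk RNA, fewer cells of a type and less RNA per cell cannot be told apart, here and in what follows.

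Germline genes were called in 1 direction. Of 28 tested genes of a germline and meiosis list, 4 were higher and 0 lower, beside 0.731% of all genes called higher, while the median of the list was 0.05 and 14 genes lay on each side of 0. Many such genes are kept silent outside the germ line by methylation of CpG-rich promoters, and serum cultures of embryonic stem cells express some of them at a low level. The promoters of the 4 called genes are shown because methylation falls on CpG dinucleotides. Each window covers 250 bases before to 50 bases after a start annotated by RefSeq (GRCm38.p6), is written 5′ to 3′ on the strand of the gene, here the minus strand each time, and has its CpG dinucleotides in capitals.
Dazl, chr17:50293571-50293870: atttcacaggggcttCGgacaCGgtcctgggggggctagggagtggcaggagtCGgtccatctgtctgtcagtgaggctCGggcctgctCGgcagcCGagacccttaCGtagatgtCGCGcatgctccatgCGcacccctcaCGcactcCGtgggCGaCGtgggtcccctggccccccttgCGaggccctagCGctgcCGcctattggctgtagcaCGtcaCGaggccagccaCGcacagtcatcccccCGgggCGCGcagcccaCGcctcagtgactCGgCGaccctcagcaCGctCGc
Mael, chr1:166238695-166238994: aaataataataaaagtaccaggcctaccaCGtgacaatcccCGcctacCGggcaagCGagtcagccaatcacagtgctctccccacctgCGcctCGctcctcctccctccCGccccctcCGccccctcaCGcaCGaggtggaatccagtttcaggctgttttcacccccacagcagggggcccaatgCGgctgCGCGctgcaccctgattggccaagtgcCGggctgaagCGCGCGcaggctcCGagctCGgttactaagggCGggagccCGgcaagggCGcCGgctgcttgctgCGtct
Syce1, chr7:140787805-140788104: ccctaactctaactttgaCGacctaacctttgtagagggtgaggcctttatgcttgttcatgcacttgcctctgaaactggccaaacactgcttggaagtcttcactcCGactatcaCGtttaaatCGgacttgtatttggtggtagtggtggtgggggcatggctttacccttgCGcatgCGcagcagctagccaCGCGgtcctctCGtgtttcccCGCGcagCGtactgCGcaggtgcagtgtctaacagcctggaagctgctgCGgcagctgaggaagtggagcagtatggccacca
Piwil4, chr9:14740623-14740922: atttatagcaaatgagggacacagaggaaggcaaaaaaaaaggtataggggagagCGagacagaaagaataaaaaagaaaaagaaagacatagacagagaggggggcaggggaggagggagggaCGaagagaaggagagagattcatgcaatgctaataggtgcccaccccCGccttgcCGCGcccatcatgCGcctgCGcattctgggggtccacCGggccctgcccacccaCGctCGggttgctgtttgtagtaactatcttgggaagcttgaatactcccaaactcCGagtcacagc

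These windows hold 28, 24, 14 and 11 CpG dinucleotides. The median over 15312 windows of 12095 genes with a row in experiment 2 was 19, with quartiles of 10 and 28, and over the 33 windows of the 25 list genes that had one it was also 19. The called genes therefore include 2 above and 2 below the median. Another annotated start of Piwil4 holds 0 CpG dinucleotides and is not printed. The letters CACGTG, an E-box that reads the same on both strands, occur in the window of Mael and in none of the other 3, against 9.73% of all those windows and 30.3% of the windows of the list. This is a description of the letters and not of binding or methylation, which were not measured. Of 14 tested DNA methylation genes 0 were called, beside 1.39% of all genes, with a median of -0.02.

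Dazl, an RNA-binding protein of germ cells, stood at 51.4, 46.2 and 54.5 CPM in untagged and 72.6, 65.6 and 70.8 CPM in tagged libraries, a log2 change of 0.46 (SE 0.07, adjusted p 0.000605). Syce1, a protein of the synaptonemal complex, stood at 22.4, 22.1 and 20.9 against 34.3, 36.1 and 32.3 CPM, a change of 0.65 (SE 0.10, adjusted p 0.000399). Piwil4, a Piwi protein that acts with piRNAs, stood at 4.82, 5.59 and 6.24 against 8.04, 9.55 and 8.37 CPM, a change of 0.64 (SE 0.14, adjusted p 0.0132). Mael, a piRNA pathway protein, stood at 39.0, 35.6 and 40.0 against 48.2, 46.6 and 44.7 CPM, a change of 0.28 (SE 0.07, adjusted p 0.0344). All tagged libraries lay above all untagged ones in these 4 genes. The call of Mael was lost in 6 of 6 fits that left out 1 library and with library size alone, and that of Piwil4 in 3. Outside the list, Sohlh2, a transcription factor of germ cells, had one of the smallest p-values of the higher genes. It stood at 63.0, 63.5 and 62.8 against 88.1, 85.4 and 93.3 CPM, a change of 0.50 (SE 0.06, adjusted p 1.07e-05). Tuba3a, a testis alpha-tubulin, stood at 11.4, 10.9 and 13.3 against 18.2, 22.1 and 20.8 CPM, a change of 0.77 (SE 0.10, adjusted p 5.83e-05).

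Genes of cholesterol synthesis were called in 1 direction too. Of 20 tested, 3 were called higher and 0 lower, beside 0.731% and 0.66% of all genes, and 19 lay above 0, with a median of 0.17 beside -0.01 over all genes. Lss, which closes the sterol ring, stood at 62.9, 67.3 and 62.9 CPM in untagged and 82.3, 77.8 and 83.8 CPM in tagged libraries, a log2 change of 0.34 (SE 0.07, adjusted p 0.0109). Dhcr7, which catalyses the last step of the pathway, stood at 48.4, 50.6 and 49.8 against 69.1, 60.1 and 67.3 CPM, a change of 0.40 (SE 0.08, adjusted p 0.00456). Insig1, the sterol sensor that retains SREBP in the endoplasmic reticulum, stood at 79.9, 65.8 and 70.4 against 89.4, 90.9 and 83.4 CPM, a change of 0.29 (SE 0.07, adjusted p 0.0181). All tagged libraries of the 3 genes were above all untagged ones. The calls of Lss and Insig1 were lost in 2 and 4 of the 6 fits that left out 1 library. In experiment 1 the 3 genes stood at -0.06, -0.04 and -0.10, none called, and the difference between the experiments was called for Lss (0.42, adjusted p 0.0276) and Dhcr7 (0.46, adjusted p 0.0170) and not for Insig1 (0.40, adjusted p 0.0652). The list median in experiment 1 was 0.09.

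Among 14 tested Wnt targets 2 were called, both higher, beside 0.731% of all genes called higher, with a list median of 0.17. Notum, an esterase that inactivates Wnt ligands, stood at 3.97, 2.82 and 3.04 CPM in untagged and 5.67, 5.71 and 6.87 CPM in tagged libraries, a log2 change of 0.89 (SE 0.16, adjusted p 0.00154). Lef1, a transcription factor that acts with beta-catenin, stood at 8.79, 7.72 and 8.43 against 11.9, 13.1 and 15.1 CPM, a change of 0.69 (SE 0.13, adjusted p 0.00402). The groups were apart for both genes. Without untagged replicate 2 the list median was 0.04. In experiment 1 it was -0.08, and Lef1 stood at -0.09 and was not called. Of 20 Nodal and TGF-beta genes 2 were called, both lower, beside 0.66% of all genes called lower. They are Lefty1, an inhibitor of Nodal, from 4.65 ± 0.386 to 2.57 ± 0.181 CPM and a log2 change of -0.86 (SE 0.22, adjusted p 0.0397), and Id1, a target of BMP signals, from 36.3 ± 1.83 to 25.7 ± 2.37 CPM and -0.50 (SE 0.11, adjusted p 0.0175). These calls were lost in 6 and 4 of the 6 fits that left out 1 library. Lrrc34 was the 1 call among 17 LIF-Stat3 targets and Apoe, an apolipoprotein made by endoderm and other cells, among 21 primitive endoderm genes. Apoe stood at 257, 224 and 192 against 139, 157 and 163 CPM, a change of -0.55 (SE 0.12, adjusted p 0.0137), and Lrrc34 at 41.3, 41.2 and 43.7 against 31.0, 34.7 and 36.3 CPM, a change of -0.31 (SE 0.07, adjusted p 0.0177). Both were lower in every tagged library, and both calls were lost without untagged replicate 1, untagged replicate 2 or tagged replicate 1, and that of Lrrc34 also without untagged replicate 3.

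Imprinted genes moved both ways. Of 22 genes listed here as maternally expressed 3 were higher and 2 lower. Of 25 listed as paternally expressed 1 was higher and 1 lower. Over all genes 0.731% were called higher and 0.66% lower. The expressed allele was not measured, so these counts describe the lists and not the parental origin of the RNA. H19, a maternally expressed long non-coding RNA, stood at 6.56, 6.33 and 7.98 CPM in untagged and 11.3, 12.1 and 13.5 CPM in tagged libraries, a log2 change of 0.82 (SE 0.20, adjusted p 0.0363). Its call was lost in 6 of 6 fits that left out 1 library. Mest, a paternally expressed hydrolase gene, stood at 20.1, 19.7 and 20.5 against 29.7, 27.9 and 27.8 CPM, a change of 0.50 (SE 0.08, adjusted p 0.000466). Grb10, a growth-restraining adaptor, stood at 427, 481 and 486 against 371, 365 and 395 CPM, a change of -0.30 (SE 0.06, adjusted p 0.0123), and Phlda2 went from 28.1 ± 1.56 to 21.3 ± 2.01 CPM, a change of -0.41 (SE 0.09, adjusted p 0.0107). Gatm, which makes the precursor of creatine, and Ddc, aromatic amino acid decarboxylase, were higher by 0.72 and 0.35. Both were counted in the maternal list, where the place of Ddc is doubtful. The gene of the paternal list called lower is Gab1 of chromosome 8. The calls of Ddc, Grb10 and Phlda2 were lost in 6, 4 and 3 of those fits.

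Of 22 replication-dependent histone genes, H1f2 and H2bc4 were called higher, beside 0.731% of all genes. Their log2 changes were 0.59 (SE 0.11, adjusted p 0.00231) and 0.42 (SE 0.09, adjusted p 0.0118), with a list median of 0.28 and values down to -1.91. Without untagged replicate 2 the call of H2bc4 was lost, and without tagged replicate 2 the list median was 0.11. Col5a1 was the 1 call of 24 collagen, laminin and adhesion genes, higher by 0.50, and the call was lost in 5 of the 6 fits that left out 1 library. In 17 of the 32 lists 0 genes were called. They include 15 naive pluripotency factors (median 0.14, 11 above 0), 10 core pluripotency factors (median 0.01), 30 hypoxia and glycolysis genes (0.03), 17 interferon response genes (0.08), 26 genes of amino acid and endoplasmic reticulum stress (-0.01), 14 heat shock genes (-0.04), 14 metallothionein and oxidative stress genes (-0.05), 11 abundant nuclear and structural non-coding RNAs (-0.04) and 8 reported TRIM71 targets (0.01). Another is the list of 9 reported miR-290 family targets (-0.12), of which 8 lay below 0 and 1 above. All lists together held 570 genes, of which 27 were called, beside 1.39% of all genes. The lists were chosen with earlier results of these data known, so this share is a description alone.

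**Figure D4:**
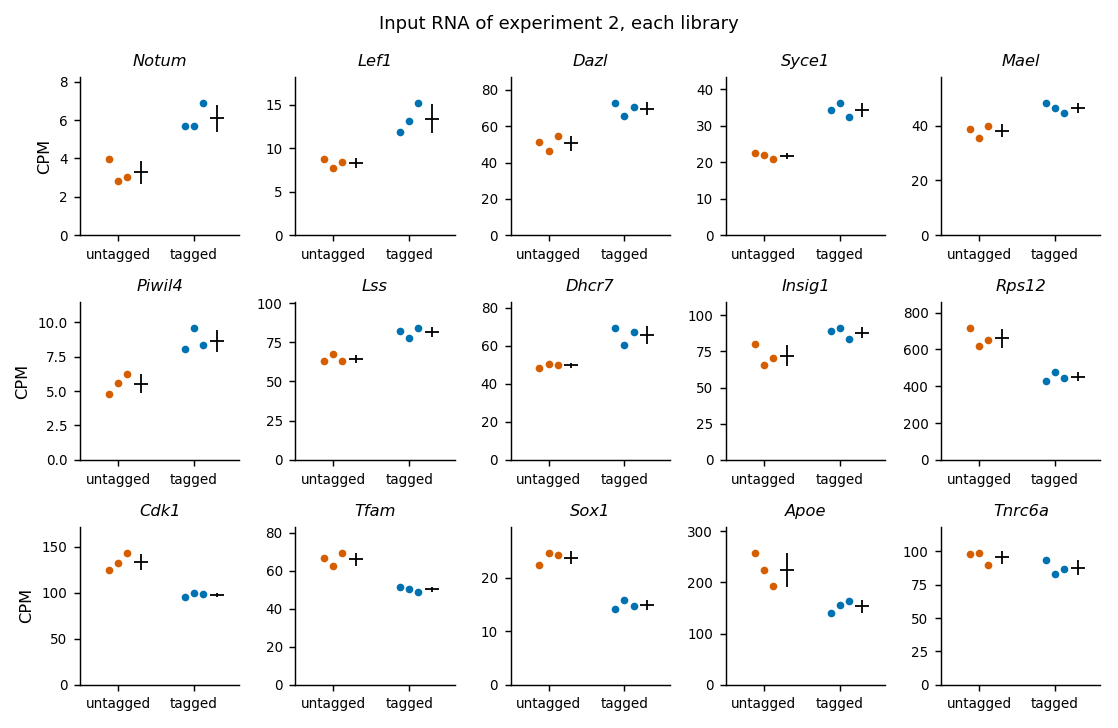
CPM in each input library of experiment 2 for 14 genes called higher or lower and for Tnrc6a. Orange points are the 3 untagged and blue points the 3 tagged libraries, and the black bar beside each group is the mean with its SD; each vertical axis starts at 0. In the 14 called genes the groups do not overlap, and in Tnrc6a they do.

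Mitochondrial mRNAs spread widely between dishes. The 13 genes lay above 0 in log2 change with a median of 0.19, and 0 were called, beside 1.39% of all genes. The library medians were 0.48, 0.03 and 0.18 in tagged and -0.24, 0.08 and 0.11 in untagged libraries, so the groups overlapped. COX1 had a log2 change of 0.15 (SE 0.12, adjusted p 0.681) and ND4L of 0.50 (SE 0.23, adjusted p 0.391). In experiment 1 the median was 1.14.

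Experiment 1 compared the same labelled lines in its own libraries and called 1595 of 14890 genes (10.7%). Without tagged replicate 1 of experiment 1 that count was 2506, and without any other library of it between 571 and 1221. Of the 211 genes called in experiment 2 that were tested there, 174 (82.5%) had the same sign, beside 58.8% of all 14877 genes tested in both. Called in both with the same direction were 66 genes, 29 higher and 37 lower, beside 5.81% and 4.9% of all genes called higher and lower in experiment 1. This is 30.4% of the 217 calls of experiment 2 and 4.14% of those of experiment 1. Of these 66, 10 lie in the runs of chromosome 10. Trh, the precursor of thyrotropin-releasing hormone, had nearly the same change in both, at 30.1, 25.0 and 30.7 against 51.4, 44.9 and 40.8 CPM in experiment 2, with log2 changes of 0.68 (SE 0.11, adjusted p 0.000605) and, in experiment 1, 0.66 (SE 0.11, adjusted p 0.000557). Ddr2 changed by 1.56 and 1.26, Mest by 0.50 and 0.58, Arl14epl by 0.89 and 0.62, and Notum by 0.89 and 0.77. Among lower genes Rnf157 changed by -0.70 and -0.94, Celsr3 by -0.69 and -1.04, and Fignl2 by -0.58 and -0.77. The number shared fell to 43, 40, 38 and 40 without untagged replicates 1 and 2 and tagged replicates 1 and 2 of experiment 2, and to 41 without untagged replicate 1 of experiment 1.

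**Figure D5:**
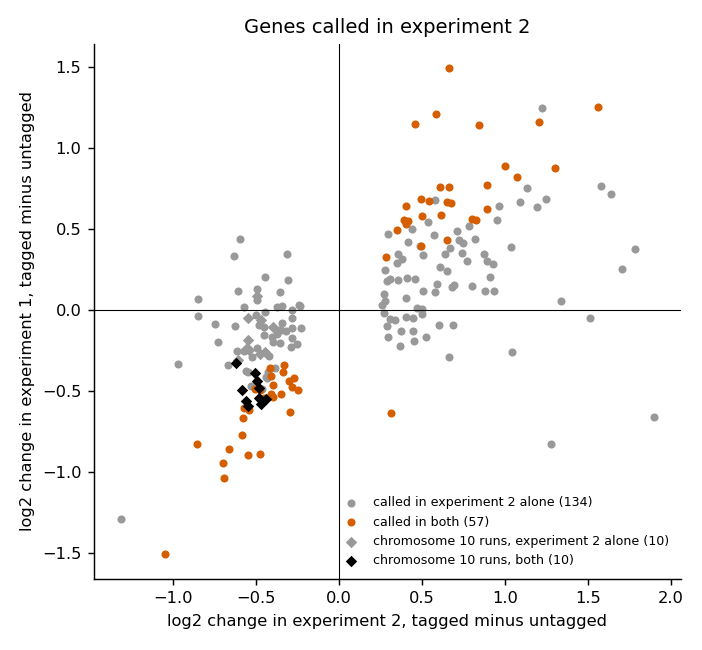
Log2 change of tagged minus untagged input RNA in experiment 2 (horizontal axis) and experiment 1 (vertical axis) for the 211 genes called in experiment 2 and tested in both. Diamonds are genes of the runs of chromosome 10, and orange or black marks genes called in both experiments. Of the points 174 lie at the lower left or upper right, and 1 gene called in both, Aire, lies at the lower right.

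Where the experiments differed was tested as an interaction over their 12 input libraries. It called 366 of 14757 genes (2.48%), 262 (1.78%) with a lower change in experiment 2 and 104 (0.705%) with a higher one. Of the 211 genes called in experiment 2, 16 were among them. Aire, a transcription factor known from the thymus, was the sole gene called in opposite directions, at 0.31 (SE 0.08, adjusted p 0.0335) in experiment 2 and -0.64 (SE 0.13, adjusted p 0.00337) in experiment 1, and its difference was called (0.97, adjusted p 0.00434). Its experiment 2 call was lost in 5 of 6 fits that left out 1 library. Dazl rose in both, by 0.46 and 1.15, and its difference was called (-0.67, adjusted p 0.0230). Apela fell in experiment 2 alone, with 0.33 in experiment 1 and a difference of -0.94, adjusted p 0.0177. In the runs of chromosome 10, 2 of 45 genes were called in the interaction. The count of 366 rests on 1 library in part. It was 2119 without tagged replicate 1 of experiment 1 and between 142 and 226 without any of the untagged libraries of experiment 1 or any library of experiment 2.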

How the data were processed

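Stranded total RNA libraries of cell lysate were sequenced. Gene counts were deposited by the authors as raw counts per gene, and deposited RPKM columns were not used. The submitters' processing notes name STAR 2.7.3a, bcl2fastq 2.20 and the GRCm38 (mm10) build. The counting tool, its annotation and its use of strand are not given in the sources used here.

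The test was that of edgeR 4.0.16 under R 4.3.3 (TMM, filterByExpr, quasi-likelihood F test, 1 mean for each group), all 24 libraries of experiment 2 in 1 fit, with Benjamini-Hochberg adjustment over all 19778 genes. Experiment 1 was fitted alone, and the interaction over 12 input libraries. SE is the log2 change over the square root of F. On simulated counts, 80 of 100 genes changed by 0.5 (log2) and 98 of 100 changed by 1 were recovered among 19647, and 6.32% of calls were false. The changed genes were drawn only from those of at least 2 log2 CPM on average, so recovery at lower levels was not measured. Replicates differed by more than sampling noise, with a chi-square per gene of 3.72 to 5.93. Alternatives were DESeq2 1.42.0, other size factors, no filter, other library sets and leaving out each library. Same-numbered samples did not vary together (correlations of deviations -0.07, -0.15 and -0.04). Chromosomes come from the RefSeq table of GRCm38.p6, matched by gene ID for 16282 of 19866 rows, as do the promoter windows.

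Genes are named by these rules, among symbols no other row shares: Tnrc6a, Trim71 and Ago2; list members; the 15 called genes each way with the largest change, a mean of at least 2 log2 CPM and groups that do not overlap; the 5 each way meeting this in both experiments; the 5 each way with the largest interaction; the 10 neighbours on each side of Tnrc6a; the 5 each way with the smallest p; and all genes of the 2 runs of chromosome 10, which were added after the data were seen. Members and lists were chosen with earlier results of these data known.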

Additional observations from a re-analysis of the deposited data

Results flagged for a closer look

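The interaction of experiment 2 with experiment 1 tests whether the difference of tagged minus untagged itself differs between the experiments, and it called 366 genes (2.48%). Their values are given without explanation, since none was tested. Of the mitochondrial mRNAs, 9 of 13 were among them, all with the larger rise in experiment 1. ATP8, a subunit of ATP synthase, was at 64.0 and 64.9 CPM in untagged and tagged cells of experiment 2 and at 13.6 and 69.8 CPM in experiment 1, so the log2 difference between the experiments was -2.31. Zfp979 and Zfp990, zinc finger genes of chromosome 4, differed by -1.53 and -1.37. Both were called higher in experiment 1, by 1.63 and 1.41, and stood at 0.08 and 0.02 in experiment 2. Slc24a5, an ion exchanger known from pigment cells, differed by -1.46, and Ipw, an imprinted non-coding RNA, by -1.31.

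In the other direction, Bc1, a small non-coding RNA of neurons transcribed by RNA polymerase III, differed by 2.48. It went from 27.6 to 18.5 CPM in experiment 2 and from 17.9 to 2.18 CPM in experiment 1. Lars2, the mitochondrial leucyl-tRNA synthetase, differed by 1.45 and stood at 625 ± 37.6 CPM in untagged cells of experiment 1 beside 152 in experiment 2. Nxph4, a neurexophilin, differed by 1.42, Bhlhe40, a circadian and hypoxia-responsive repressor, by 1.31 and 9530080O11Rik by 1.28. Over 16 other fits the calls of Nxph4, 9530080O11Rik and Bc1 were lost in 10, 8 and 1, and 0 of the 10 named genes changed sign.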

How the results depend on the processing

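The 217 calls became 221 with RLE size factors, 197 with library size alone, 223 with no filter on low counts and 285 with DESeq2, which kept 217, 182, 213 and 216 of them. Fits of the 6 libraries alone and of the 12 input libraries called 417 and 349 genes, 48 and 43 of them at 2-fold or more instead of 27. The replicate numbers were not taken to pair the samples, since same-numbered samples did not vary together. That check does not exclude that same-numbered dishes were handled together. With the replicate block the counts were 260 within each fraction and 287 with the 6 libraries alone, 44 of the latter at 2-fold or more, and the call of Cfap300 was lost in the latter. The percent of calls that are higher, 52.5, was 62.9 with library size alone. Without the genes of the runs of chromosome 10, 197 calls were left. The interaction had 645 calls with DESeq2. Leaving out 1 library gave 117 to 147 calls, 17 to 30 at 2-fold or more and 49.3% to 66.1% of calls higher. It gave 571 to 2506 calls in experiment 1, 142 to 2119 in the interaction and 38 to 67 shared between experiments.

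The median of the first run, -0.42, was -0.40 with library size alone and -0.41 with no filter, with the 6 libraries, with the 12 input libraries and with the block on the 6 libraries, and lay from -0.42 to -0.35 with 1 library left out. That of the second run, -0.47, was -0.45 with library size alone and lay from -0.48 to -0.42. In every one of these fits all 45 genes stayed below 0. The fits reuse the counts by which these genes were picked, so this was largely set in advance. The chromosome 8 median, -0.11, was -0.083 with library size alone, -0.094 over genes of any level and -0.11 to -0.080 with 1 library left out. That of chromosome 10, -0.035, was -0.011 with library size alone.

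Of the 72 called genes that the naming rules pick, 40 kept the call in every fit, 32 lost it in at least 1 fit with a library left out, 8 under at least 1 other setting, and 0 changed sign. With library size alone Ahi1, Aire, Cfap300, Grb10, Lrrc34, Mael and Mef2b lost it, and with no filter Lefty1. The causes were not tested. In simulated data the depth sufficed for 80% of changes of 0.5 (log2) in genes of at least 2 log2 CPM. Smaller changes, and changes in genes of lower level, can therefore be missed.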
